A study of Mus musculus with 33 samples.

Results

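Liver nodules driven by MYC and an activated form of β-catenin were compared with wild-type livers by RNA sequencing, as 3 MYC+Ex3 tumours against 7 livers, 10 of the 33 samples of the series. They were picked by their labels rather than by their values, though with earlier results of these data known, and all 10 entered the comparison. The tumours were primary nodules of mice with 3 alleles. Alb-CreERT2 is a Cre recombinase that is expressed from the albumin promoter, and so mainly in hepatocytes, and that 4-hydroxytamoxifen (4-OHT) activates. R26-lslMYC is a MYC transgene at Rosa26 that stays silent until Cre removes a stop cassette, and b-catEx3 is a β-catenin allele that loses exon 3 under Cre. The livers came from wild-type mice on day 4 after an intraperitoneal injection of 4-OHT; the labels do not say whether these mice carried the Cre. All mice were C57BL/6, and the labels give no age for these animals, no treatment for the tumours and no word on whether each nodule came from its own mouse, so that p-values measure the spread between these samples. Genotype, tumour and time after treatment differed together between the groups and cannot be told apart. The 3 MYC tumours of the series, nodules with the MYC transgene and the Cre but without b-catEx3, are brought in where they show what the MYC+Ex3 tumours share with MYC alone.

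Exon 3 of β-catenin carries the phosphorylation sites that mark the protein for destruction, so its loss leaves a stable protein that enters the nucleus and acts with the TCF/LEF factors. In the liver this pathway sets zonation: hepatocytes around the central vein receive Wnt signals and make glutamine synthetase and many cytochrome P450 enzymes, while periportal hepatocytes carry out urea synthesis, gluconeogenesis and amino acid breakdown. MYC binds E-box sequences with its partner MAX and drives ribosome production, nucleotide synthesis and cell growth.

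Between 6.65 and 9.30 M reads per library lay in genes, and 16321 to 16833 genes had at least 1 read. The unit is RPKM, reads per kilobase of a gene's length per M reads, with each library divided by its median ratio to the mean of all, and changes are log2 units of RPKM + 1, a scale on which changes of low genes look smaller than they are. By Xist and Ddx3y, 2 of the 3 MYC+Ex3 tumours, all 3 MYC tumours and 4 of the 7 livers were male. The values of the most abundant genes ran into a ceiling: no library had a gene above 1.63 to 1.81 reads per base, and 293 of the tested genes lay above 1 read per base in a group, so that changes of albumin, apolipoproteins, Igf2 or H19 are limited by it. A gene could enter the test, which asked for an RPKM of at least 1 in 3 libraries, through the 3 tumours alone; counts for lists of genes that are silent in the liver therefore describe only the genes that passed.

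The tumours differed from the livers across most of the transcriptome. Of 11571 genes tested, 7883 (68.1%) were called at a limma adjusted p under 0.05, 4307 of them higher in the tumours (37.2%) and 3576 lower (30.9%). In 6838 genes (59.1%) the groups did not overlap, meaning that all 3 tumours lay above or below all 7 livers. Counts of called or non-overlapping genes in the lists below stand against these shares. Changes of at least 1 log2 unit were seen in 1084 called genes upward and 970 downward, and of at least 3 log2 units in 38 and 52. The median change of all tested genes was 0.05 after rescaling and 0.23 in the values as deposited. Higher genes made up 54.6% of the calls after rescaling and 67.9% as deposited, so small changes depend on the scaling. The authors' deposited table gave 5114 genes higher and 4977 lower at an adjusted p under 0.05, and 7769 of the 7883 calls were called there with the same sign. Expression profiles correlated across genes at a Pearson r of 0.961 to 0.977 among the tumours, 0.943 to 0.981 among the livers and 0.678 to 0.735 between the groups, where genes are not independent replicates.

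**Figure D1:**
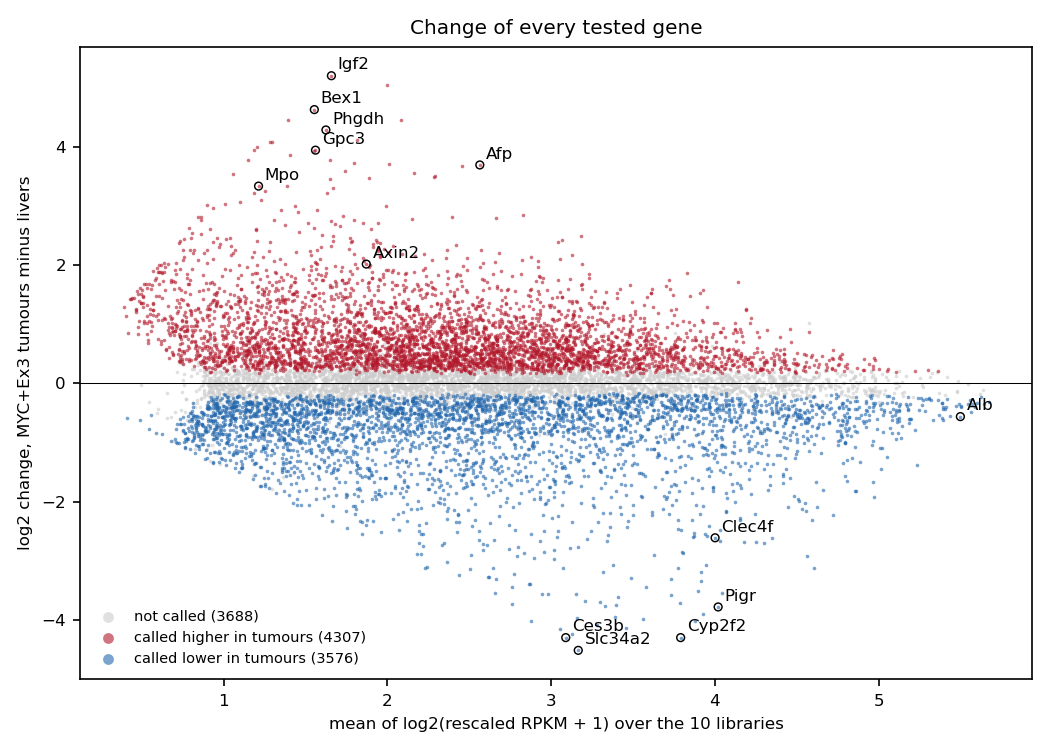
Change of each of the 11571 tested genes (vertical axis, log2 units, MYC+Ex3 tumours minus livers) against its mean level over the 10 libraries (horizontal axis, mean of log2(rescaled RPKM + 1)). Red points are the 4307 genes called higher and blue points the 3576 called lower by limma; changes narrow at the right edge, where Alb lies.

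Genes of fetal growth rose, and Igf2 and H19 had the 2 largest rises of all tested genes. Igf2, the fetal insulin-like growth factor, stood at 35.6, 42.3 and 37.4 RPKM in the 3 tumours and between 0.0273 and 0.134 RPKM (median 0.0776) in the livers. It rose by 5.20 ± 0.0762 log2 units (SE; limma adjusted p = 1.08e-12), a 533-fold difference of the means, with every tumour far above every liver. H19, the noncoding RNA imprinted beside Igf2, was at 41.6, 49.8 and 43.6 RPKM in the tumours and from 0.0269 to 1.65 (median 0.289) in the livers (5.04 ± 0.238, limma adjusted p = 8.12e-09). Afp, the albumin of the fetus and a serum marker of liver cancer, was at 32.1, 36.7 and 34.8 RPKM against 0.86 to 3.06 (median 1.54) in the livers (3.69 ± 0.221, limma adjusted p = 4.97e-08). Gpc3, a cell-surface proteoglycan used to diagnose hepatocellular carcinoma, reached 18.5, 18.8 and 19.6 RPKM, where no liver passed 0.526 (3.94 ± 0.094, limma adjusted p = 3.39e-11). In each of these 4 genes the tumours resembled one another more closely than their distance from any liver.

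Of 17 oncofetal and imprinted growth genes in the table, 11 passed the filter, and all 11 rose, with a median change of 2.80 against 0.05 for all genes. Igf2, Gpc3, Peg10 and Dlk1, under 1 RPKM in every liver, were among those that passed through the tumours alone. H19, Igf2bp3 and Cdkn1c reached 1 RPKM in fewer than 3 livers and also needed the tumours to pass. Such genes could hardly be counted as lower, so the filter in part fixed this count and median. They included the imprinted genes Peg10 (20.6, 17.8 and 17.4 RPKM in the tumours, 0.342 to 0.577 with a median of 0.406 in the livers) and Cdkn1c, which encodes the cell cycle inhibitor p57 (9.07, 9.16 and 15.8 RPKM, against 0.526 to 1.6 with a median of 0.554). Dlk1, a hepatoblast surface protein, had at most 1 read in each liver and was at least 72.5-fold higher in the tumours. The 6 members under the filter did not share one pattern. Lin28b, which blocks maturation of let-7 microRNAs, ranged from 3 to 920 reads among the tumours and had at most 1 in any liver, and Igf2bp1 ranged from 4 to 155 reads. Without any 1 of the tumours 6 of the 11 stayed in the test and were called. Igf2bp2 and Plagl1 had lower mean RPKM in the tumours (0.0542 and 0.134) than in the livers (0.41 and 0.357). Igf2bp3, an RNA-binding protein of the same family as Igf2bp1, was among those that rose (7.28, 8.17 and 8.25 RPKM, against 0.658 to 1.24 with a median of 0.8).

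Among the 15 called genes with the largest rise, further members were 3 neighbours on the X chromosome, Bex1, Bex2 and Bex4, small proteins first described in brain. Bex1 was at 24.3, 29.6 and 26.4 RPKM in the tumours and at most 0.203 in any liver (4.62 ± 0.0801, limma adjusted p = 2.58e-12), Bex2 rose by 4.08 and Bex4 by 3.92. Ggt1, the γ-glutamyltransferase that fetal liver and liver lesions express, was at 20.2, 21.1 and 23.9 RPKM against 0.0136 to 0.0841 (median 0.0355), a rise of 4.44 ± 0.0742 (limma adjusted p = 2.52e-12). Dusp9, a phosphatase that acts on ERK, rose by 4.07 and S100g, a calcium-binding protein, by 3.86. Against livers with at most 1 read in each library, Pnliprp1, a relative of pancreatic lipase, was at least 215-fold higher, Shbg, the plasma carrier of sex steroids, at least 183-fold and Tmed6, a protein of the secretory pathway, at least 101-fold. These bounds use the RPKM that 3 reads would give in a single library. The remaining members of the 15 were Igf2, H19, Gpc3, Peg10 and the amino acid genes Phgdh and Asns, described further on.

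Targets of β-catenin that feed back on the Wnt pathway rose. Of 13 feedback genes, 11 were tested. Of these 10 rose and 1 fell, with a median change of 1.43, and all 10 also differed without overlap of the groups. Lgr5 and Sp5, at most at 0.768 and 0.3 RPKM in any liver, passed the filter through the tumours alone. These 2 could therefore enter the counts only as higher. Nkd1, at 0.752 to 1.05 RPKM in the livers, reached 1 RPKM in fewer than 3 of them and also needed the tumours to pass. Tnfrsf19, a receptor of the TNF family, was at 9.89, 8.07 and 9.8 RPKM in the tumours and from 0.813 to 1.82 (median 1.04) in the livers (2.27 ± 0.13, limma adjusted p = 3.5e-08). Axin2, a scaffold of the β-catenin destruction complex, was at 9.94, 7.12 and 9.37 RPKM against 0.789 to 1.85 (median 1.52), a rise of 2.02 ± 0.152 (limma adjusted p = 3.06e-07). Sp5, a transcription factor induced by Wnt, was at 2.66, 2.76 and 3.88 RPKM and did not pass 0.3 in any liver (1.77 ± 0.111, limma adjusted p = 6.88e-08). The ubiquitin ligases Znrf3 and Rnf43, which remove Wnt receptors, rose by 1.64 and 0.88, and the R-spondin receptor Lgr5 by 1.24. Tcf7 (1.48), Nkd1 (1.43), Tbx3 (0.76) and Notum, a secreted enzyme that inactivates Wnt proteins (0.58), rose as well. Ccnd1, which encodes cyclin D1, was at 10.3, 9.29 and 5.13 RPKM against 8.43 to 14.6 (median 12.6); it fell by 0.54 (limma adjusted p = 0.0252) with overlapping groups, and was called neither in the values as deposited nor without the third tumour (-0.26, limma adjusted p = 0.205). Ctnnb1, the gene of β-catenin itself, was at 24.5, 26.1 and 24 RPKM against 22.6 to 26.7 (median 25.1) and was not called (0.00, limma adjusted p = 0.965); gene-level values do not show the exon 3 deletion.

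The letters of the TCF/LEF motif were found in promoters of 2 of these genes. RefSeq promoter windows (build GRCm38.p6, 250 bases before to 50 after the start) were at hand for 6 of the 11 tested feedback genes and for 8662 of all tested genes, and were searched for CTTTGAT on both strands. Sp5 and Tnfrsf19 held it, 2 of 6 (33.3%), against 266 of 8662 tested genes (3.07%). The share was 2.87% of genes called higher and 3.08% of genes called lower, so it was no larger among genes that rose. In the other lists searched it ranged from 0 of 22 replication genes to 2 of 18 mitosis genes (11.1%), with 1 of 12 periportal genes (8.33%). The 250 bases before each start are shown because these are 2 of the 3 genes of the list with the largest rise, with the motif in capitals; in Tnfrsf19 it lies on the opposite strand and reads ATCAAAG. The Sp5 sequence is chr2:70474673-70474922 on the plus strand, and the Tnfrsf19 sequence chr14:61037988-61038237 on the minus strand, upstream of 1 of its 2 annotated starts.
Sp5: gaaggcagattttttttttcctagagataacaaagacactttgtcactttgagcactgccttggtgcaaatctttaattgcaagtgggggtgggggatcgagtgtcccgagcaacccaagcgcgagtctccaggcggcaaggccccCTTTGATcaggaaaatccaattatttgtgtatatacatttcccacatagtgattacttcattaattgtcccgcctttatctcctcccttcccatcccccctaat
Tnfrsf19: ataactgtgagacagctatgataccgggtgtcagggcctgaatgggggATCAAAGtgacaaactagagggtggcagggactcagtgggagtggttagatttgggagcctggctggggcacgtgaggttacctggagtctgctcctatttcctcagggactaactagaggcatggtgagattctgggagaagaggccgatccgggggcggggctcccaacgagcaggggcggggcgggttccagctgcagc
The match begins 104 bases before the start of Sp5 and 202 before that of Tnfrsf19. A match describes the letters only, not a bound site, and the 4 windows without it say nothing of the factor. The mm9 coordinates of the deposited counts were not used here.

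Pericentral genes did not move together. Of 15 tested, 4 rose and 7 fell after rescaling (median -0.15), against 6 and 5 as deposited (median 0.06), so the balance of this list flips with the scaling. Without the first tumour 4 fell. Called genes numbered 11 of the 15, where 68.1% of all tested genes were called. Rhbg, an ammonium transporter of the hepatocytes next to the central vein, was at 17.2, 15.2 and 13.3 RPKM against 3.3 to 6.74 (median 4.37) and rose by 1.56 ± 0.159 (limma adjusted p = 3.48e-06). Slc1a4, a transporter of neutral amino acids, rose by 1.07, Lhpp, a phosphatase, by 0.79 and Slc1a2, a glutamate transporter, by 0.45, which was not called without the first tumour (0.24, limma adjusted p = 0.18). Glul, which encodes glutamine synthetase and is the classical marker of this zone, was at 40.8, 47.4 and 43.5 RPKM against 33.6 to 43.7 (median 38.1); its change of 0.19 ± 0.0891 was not called (limma adjusted p = 0.0765; 0.0401 without liver 2), and at 1.58 reads per base in the tumours it lay near the ceiling. The pericentral enzymes Cyp2a5 (-1.19) and Aldh1a1 (-1.15) fell.

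Periportal genes fell, in many cases to a small remainder. Of 15 tested, 12 fell and none rose, with a median of -1.92 (11 fell and 1 rose as deposited, and 1 rose without the first tumour or liver 2). Cyp2f2, a cytochrome P450 used as a periportal marker, was at 0.281, 2.03 and 0.323 RPKM in the tumours and from 27.9 to 37.2 (median 34.6) in the livers, a change of -4.29 ± 0.22 (limma adjusted p = 1.54e-08). Pigr, the receptor that carries IgA into bile, was at 1.06, 2.99 and 1.13 RPKM against 31.3 to 38.8 (median 35.1), or -3.77 ± 0.168 (limma adjusted p = 5.25e-09). Sds, serine dehydratase, was at 0.373, 5.64 and 1.2 RPKM against 22.5 to 36.2 (median 31.4), or -3.51 ± 0.354 (limma adjusted p = 3.27e-06). In all 3 genes the second tumour held the highest value of the tumours and still lay far under every liver. Hal, histidine ammonia-lyase (-2.58), Uroc1, urocanase of the same pathway (-2.62), and Hsd17b6, a steroid and retinol dehydrogenase (-2.62), fell alike. The urea cycle fell less. Of 8 genes 5 fell and none rose (median -0.49), and 4 fell and 1 rose as deposited, where 30.9% of all tested genes were lower. Otc was at -1.05, Arg1 at -0.93, and Asl and Ass1 both at -0.55. Cps1, the entry enzyme, was not called (-0.22, limma adjusted p = 0.0951, and 0.0493 without liver 4). Of the 8 genes 3, among them Cps1, lay above 1 read per base, so their changes are limited by the ceiling.

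**Figure D2:**
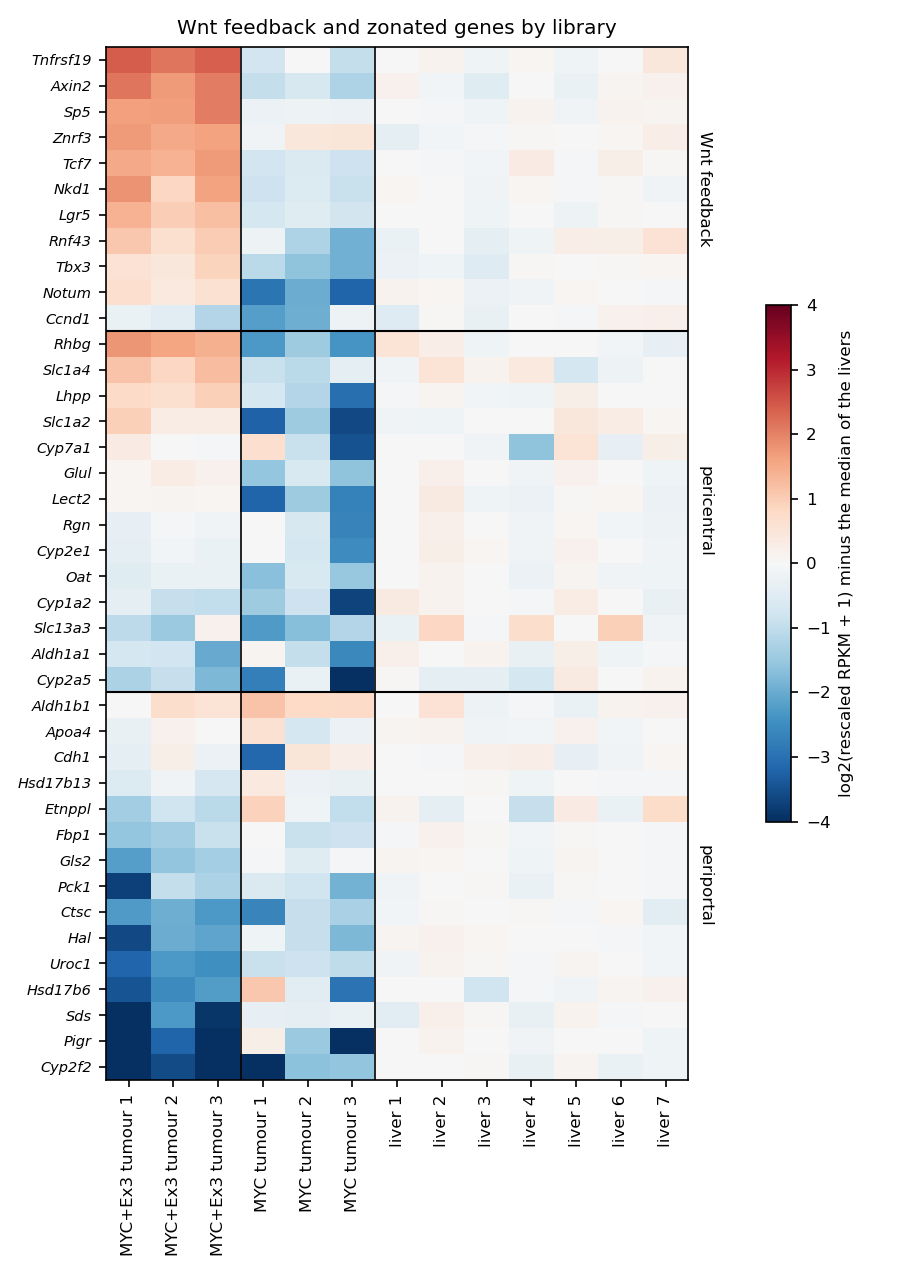
Level of tested Wnt feedback, pericentral and periportal gene (rows) in each library (columns: 3 MYC+Ex3 tumours, 3 MYC tumours, 7 livers), as log2(rescaled RPKM + 1) minus the median of the livers; red is higher and blue lower, with the scale ending at 4 units. Wnt feedback genes other than Ccnd1 are red in the 3 MYC+Ex3 tumours, all are blue or pale in the MYC tumours, and the lower periportal rows are blue in the MYC+Ex3 tumours.

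Zonated genes differed between tumours with and without the β-catenin allele. In a fit of all 13 libraries, 583 of 11854 genes (4.92%) were called between MYC+Ex3 and MYC tumours, 302 higher with Ex3 (2.55%) and 281 lower (2.37%). All 3 MYC tumours were male and 1 MYC+Ex3 tumour was female, so sex differs in part with the allele. With sex as a covariate 485 genes were called. Of the 11 Wnt feedback genes 10 were higher with Ex3 (median 2.17 against 0.03 for all genes), of the 15 pericentral genes 7 were higher and none lower (median 1.24), and of the 15 periportal genes 4 were lower and none higher (median -1.02). Notum was at 16.6, 13.4 and 16 RPKM in the MYC+Ex3 tumours and at 0.459, 1.78 and 0.21 in the MYC tumours (3.26, limma adjusted p = 1.37e-06), with the livers between them at 8.44 to 11.2. Rhbg (3.61, limma adjusted p = 1.37e-06) and Slc1a2 (3.28, limma adjusted p = 0.000477) also lay under the livers in every MYC tumour; the MYC+Ex3 tumours lay above all livers in Rhbg and overlapped with them in Slc1a2. Glul was higher by 1.45 with Ex3 (limma adjusted p = 0.0014). The pericentral genes lower than the livers numbered 14 of 15 in the MYC tumours (median -1.36), where 2764 of all 11854 genes (23.3%) were lower, and, in the same fit, the median in the MYC+Ex3 tumours was -0.16; these sets of changes share the 7 livers.

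On the portal side Sds stood at 25.4, 24.9 and 26.2 RPKM in the MYC tumours, inside the liver range of 23 to 37.1, and at 0.38, 5.72 and 1.21 with Ex3 (-3.28, limma adjusted p = 0.000363). Hal (-1.61), Uroc1 (-1.72) and Gls2, liver glutaminase (-1.53), were the other 3 periportal genes lower with Ex3. Other genes with the largest differences between the tumour types were Pnliprp1, at 16, 12.4 and 17.4 RPKM with Ex3 and at most 0.642 in MYC tumours (3.77, limma adjusted p = 8.74e-08), and Ldhb, the heart form of lactate dehydrogenase, at 18.2, 15.6 and 9.56 RPKM with Ex3 and at most 0.824 in MYC tumours (3.48, limma adjusted p = 1.37e-06). Lower with Ex3 were Hamp2 (-2.74) and Ces3a (-2.38), whose close paralogs can share their reads, Selenbp2, a selenium-binding protein (-2.58), and Sqrdl, a mitochondrial sulfide oxidase (-2.42). Igf2 did not differ beyond the spread (0.10, limma adjusted p = 0.627), and Afp, at 1.83, 27.8 and 29 RPKM in the MYC tumours, was not called (1.42, limma adjusted p = 0.249). At 1.38 reads per base in the MYC+Ex3 tumours Igf2 lay near the ceiling, which limits its comparison. A fit of only the 6 tumours called 50 genes. The count was 276, 296 and 225 without the first, the second and the third MYC+Ex3 tumour and 957 without the third MYC tumour. The calls of Hamp2 (adjusted p up to 0.112), Selenbp2 (up to 0.0988) and Ces3a (up to 0.131) were lost without 1 or another MYC+Ex3 tumour in this limma fit.

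Genes of ribosome production, a classical output of MYC, rose together. Of 25 tested, 24 rose and none fell, with a median of 1.33. Ncl, nucleolin, was at 16.6, 19.4 and 17 RPKM in the tumours and from 4.16 to 6.19 (median 5.26) in the livers, a rise of 1.60 ± 0.112 (limma adjusted p = 1.74e-07). The nucleolar proteins Nolc1 (1.68), Nop56 (1.58) and Nop58 (1.57) rose by similar amounts, and the narrow spread among the tumours held for each. Of 20 other growth genes known to respond to MYC, 17 rose and none fell, with a median of 0.87. Among them were Mthfd2, a mitochondrial folate enzyme (2.02), Cad, which starts pyrimidine synthesis (1.85), Srm, spermidine synthase (1.64), and Tfrc, the transferrin receptor (1.46). Myc itself was at 1.91, 2.06 and 2.08 RPKM against 1.06 to 2.44 (median 1.78) and was not called (0.17, limma adjusted p = 0.316), and the species of the transgene's MYC is not given in the labels, so its level was not measured. Of its 12 network genes 5 rose and 4 fell (7 and 3 as deposited). Among all tested genes, 37.2% were called higher and 30.9% lower. Mxd3 (0.93), Mxd1 (0.88), Max (0.79) and Mxi1 (0.71) were among the network genes that rose, and Mlxipl, which encodes the glucose-sensing factor ChREBP, fell by 1.22.

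The share of promoters with the E-box CACGTG, which reads the same on both strands, varied between the lists. Of 19 other MYC-responsive growth genes with a window 8 held it (42.1%), of 20 ribosome biogenesis genes 4 (20%), of 12 G1 genes 3 (25%), of 22 replication genes 2 (9.09%) and of 18 mitosis genes none, against 1042 of 8662 tested genes (12%); the share was 14% of genes called higher and 9.81% of genes called lower. Cdk4, the cyclin-dependent kinase of G1, was at 25.9, 29.7 and 27.7 RPKM against 12.5 to 14 (median 13), and rose by 1.03 ± 0.0653 (limma adjusted p = 7.81e-08). Eif4e, which binds the mRNA cap, was at 13.6, 15.7 and 14.2 RPKM against 6.92 to 9.03 (median 8.12), and rose by 0.79 ± 0.0854 (limma adjusted p = 5.99e-06). Their promoters are shown because they hold the most copies among the 19 growth genes, 4 and 2 (in capitals), in chr10:127063285-127063534 and chr3:138527018-138527267, both on the plus strand.
Cdk4: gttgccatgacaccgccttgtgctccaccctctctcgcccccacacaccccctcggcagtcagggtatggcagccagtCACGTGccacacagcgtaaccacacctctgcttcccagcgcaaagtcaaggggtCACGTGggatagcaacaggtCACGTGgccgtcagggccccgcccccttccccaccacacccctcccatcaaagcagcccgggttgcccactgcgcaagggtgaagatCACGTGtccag
Eif4e: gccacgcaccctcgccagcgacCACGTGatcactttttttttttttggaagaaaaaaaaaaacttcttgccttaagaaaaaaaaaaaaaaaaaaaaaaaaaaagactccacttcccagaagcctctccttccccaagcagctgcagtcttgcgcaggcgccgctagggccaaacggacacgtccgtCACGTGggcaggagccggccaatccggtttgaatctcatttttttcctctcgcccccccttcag
The copies begin 172, 118, 98 and 11 bases before the start of Cdk4, and 228 and 64 before 1 of the 2 annotated starts of Eif4e. Not every gene with the letters rose: Paics, a purine enzyme that also holds an E-box, was at 19.5, 23.9 and 21.3 RPKM against 17.6 to 24.4 (median 21.2), with overlapping groups (0.04, limma adjusted p = 0.759).

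Cell cycle genes rose with little exception. All 23 tested genes of G2 and mitosis rose (median 1.73), as did 25 of 26 genes of DNA replication (median 1.60), with none lower. The size of the rise varied with the livers used. Against the livers with S14 in their names alone, the mitosis median was 1.46 (22 rose), and against those with S15 alone 2.09 (23 rose). The replication medians were 1.51 and 1.73. Ccnb1, cyclin B1, was at 18.1, 22.5 and 18.8 RPKM against 1.44 to 7.03 (median 4.19), a rise of 2.14 ± 0.327 (limma adjusted p = 0.0001), and Mki67, the Ki-67 antigen, was at 24.3, 27.7 and 20.3 RPKM against 4.54 to 10 (median 5.89), or 1.66 ± 0.217 (limma adjusted p = 2.81e-05). In both genes every tumour lay above every liver. The groups did not overlap in 22 of the 23 mitosis genes and 24 of the 26 replication genes, against 59.1% of all tested genes. The exceptions were Kif23, a kinesin of cytokinesis, Tk1, thymidine kinase, and Mcm10, a replication factor. Bub1, Cdc6 and Cdc45, under 1 RPKM in every liver, were among the genes that passed the filter through the tumours alone. The kinesin Kif11 (2.15), the primase subunit Prim1 (2.19), Uhrf1, which maintains DNA methylation (2.19), and the helicase subunit Mcm2 (2.11) led their lists. In G1, Ccne1, cyclin E1, was at 9.21, 11.8 and 13.6 RPKM against 0.638 to 3.55 (median 0.932) and rose by 2.43 ± 0.284 (limma adjusted p = 1.11e-05), while the D cyclins differed in direction. Ccnd1 (-0.54) and Ccnd2 (-0.92) fell, the former only with the third tumour included (-0.26 without it). Ccnd3 was at 1.97, 2.40 and 2.30 RPKM against 1.36 to 2.08 (median 1.59) and rose by 0.30 (limma adjusted p = 0.0112) with overlapping groups; it was not called without the second tumour (0.26, limma adjusted p = 0.0565) or under upper-quartile rescaling (0.21, limma adjusted p = 0.069). Of 17 p53 response genes, 8 rose and 3 fell (12 and 3 as deposited, and 5 rose without the second tumour). The 11 called genes of these 17 were near the share of all tested genes, 68.1%. The inhibitor Cdkn1a (1.21) and the death genes Bbc3 (0.95) and Eda2r (1.11) rose, Gdf15, a stress cytokine, fell by 1.92 and the death receptor Fas by 1.18.

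Serine and amino acid synthesis rose out of near silence. Phgdh, which opens serine synthesis from glycolysis, was at 21.7, 25.9 and 23.4 RPKM in the tumours and from 0.0941 to 0.371 (median 0.272) in the livers, a rise of 4.28 ± 0.0938 (limma adjusted p = 1.92e-11). Psat1, the next enzyme of that pathway, was at 21.4, 24.9 and 23.9 RPKM against 0.5 to 1.75 (median 0.823), or 3.71 ± 0.163 (limma adjusted p = 4.6e-09). Asns, asparagine synthetase, was at 22.3, 26.9 and 25.6 RPKM against 0.216 to 1.83 (median 0.357), or 4.11 ± 0.218 (limma adjusted p = 1.95e-08). These 3 enzymes thus stood at 20 RPKM or more in each tumour and under 2 RPKM in each liver. Phgdh passed the filter through the tumours alone. Asns, at 1.83 RPKM in liver 7 and at most 0.534 in the other livers, also needed the tumours to pass. Of 18 genes of serine synthesis and of targets of the stress factor ATF4, 11 rose and 1 fell (median 1.38); Slc7a5, which imports large neutral amino acids, rose by 2.41, and Chac1, a glutathione-degrading enzyme often used to read ATF4 activity, fell by 0.96. Atf4 itself was not called (0.16, limma adjusted p = 0.172), nor was its target Trib3 (0.18, limma adjusted p = 0.637).

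Glycolytic isoforms of growing cells and of adult liver moved in opposite directions, with exceptions. Of 9 tested glycolytic genes of growing cells, 6 rose and none fell (median 0.58), led by Ldhb (17.9, 15.4 and 9.45 RPKM against 0.417 to 1.13, median 0.498; 3.22 ± 0.173, limma adjusted p = 2.12e-08). Hk2, the hexokinase of growing cells, rose by 1.34, and Pkm, the pyruvate kinase gene that adult hepatocytes hardly use, by 1.17. Of 6 adult liver genes 5 fell, 3 of them in the values as deposited, among them liver pyruvate kinase, Pklr (-0.75), while Pfkl, the liver phosphofructokinase, rose by 1.16. In gluconeogenesis and glycogen metabolism 8 of 12 fell and 2 rose (median -0.59). Pck1, the rate-setting enzyme of gluconeogenesis, was at 2.68, 24 and 19.5 RPKM against 40 to 49.3 (median 47.4), with every tumour under every liver and the first far lower than the others, a fall of 1.92 ± 0.437 (limma adjusted p = 0.00192). Ppargc1a, a coactivator that fasting induces, rose by 0.76.

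Lipid enzymes fell. Of 15 genes of fatty acid synthesis 14 fell and none rose (median -0.84), with Acacb, the acetyl-CoA carboxylase of the mitochondrial surface, at 0.628, 0.409 and 0.456 RPKM against 5.66 to 8.29 (median 6.17; -2.36 ± 0.114, limma adjusted p = 9.96e-09), Thrsp at -1.82 and the desaturase Scd1 at -1.37. Fatty acid oxidation was lower in 14 of 20 genes and higher in 1 (median -0.49): the PPARα targets Cyp4a10 (-2.11) and Ehhadh (-1.66) fell, as did Ppara (-1.05), while Pdk4, the kinase that blocks pyruvate oxidation and also a PPARα target, was at 8.63, 9.03 and 14.2 RPKM against 0.444 to 3.78 (median 1.55) and rose by 2.24 ± 0.307 (limma adjusted p = 4.16e-05). Cholesterol synthesis fell in 12 of 18 genes and rose in 1 (8 and 3 as deposited; 2 rose without liver 4), with Sc5d at -1.30 and Cyp51 at -1.13. In methionine metabolism the synthetase genes of growing cells rose: Mat2a rose by 0.86 and Mat2b by 0.39, Bhmt, which remakes methionine from betaine, fell by 1.53 and Cbs by 0.95, and of 15 genes 3 rose and 10 fell (3 and 6 as deposited).

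**Figure D3:**
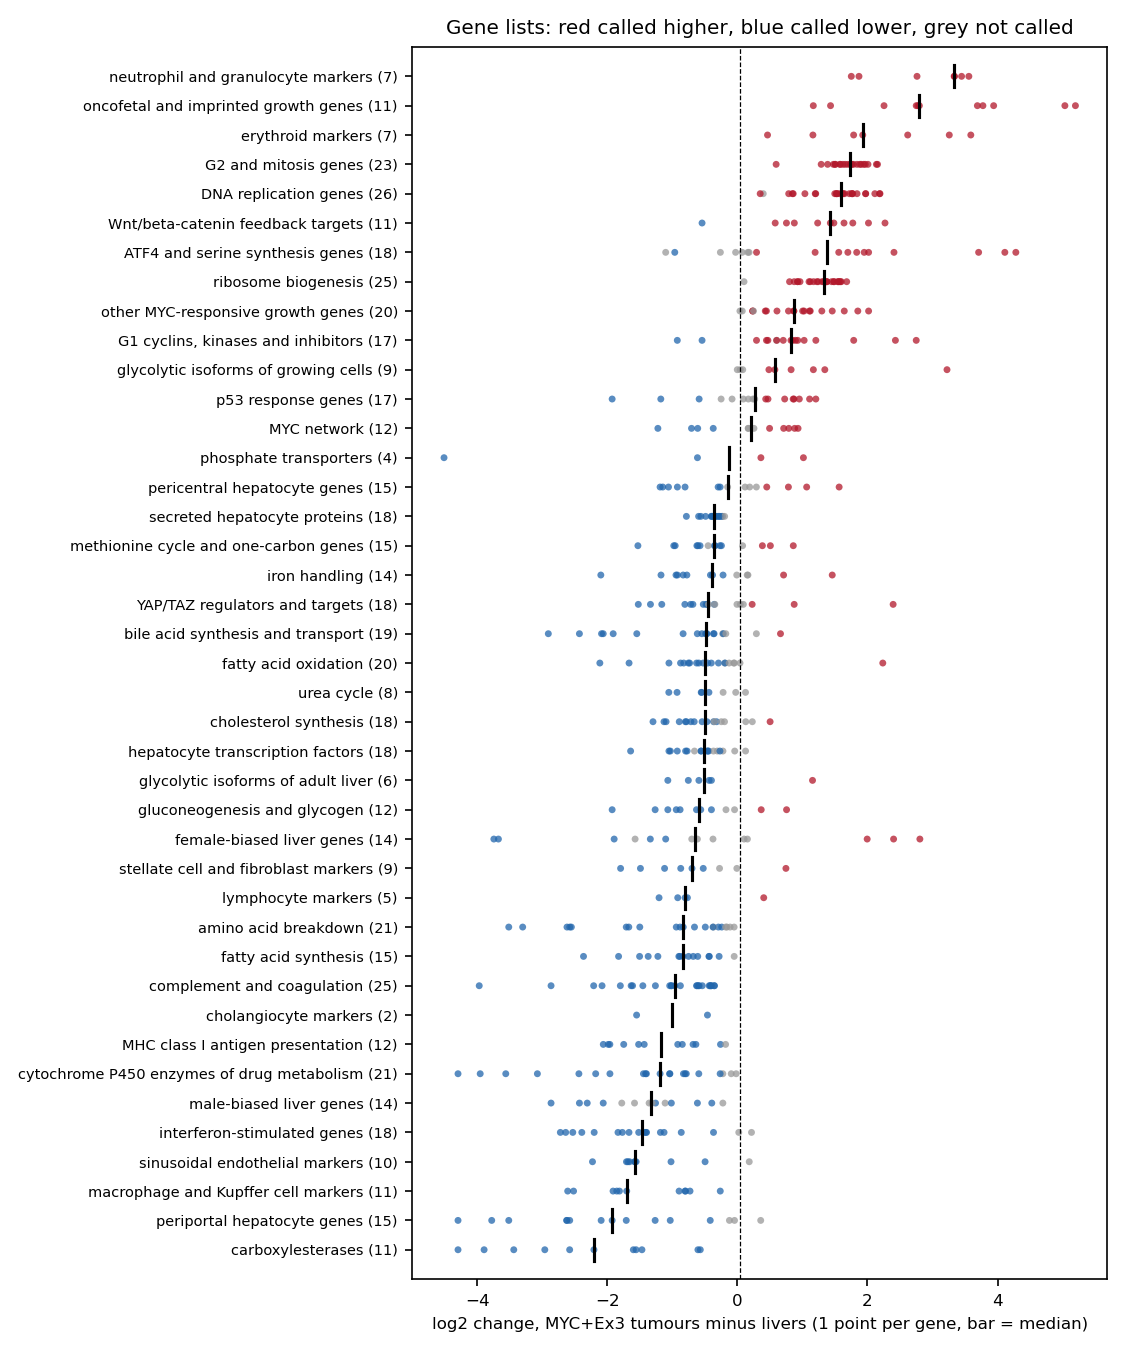
Log2 change (horizontal axis, MYC+Ex3 tumours minus livers) of every tested member of each gene list, 1 point per gene, with the number tested in parentheses; red points were called higher, blue lower and grey not called, the bar is the median of the list and the dashed line the median of all genes, 0.05. Granulocyte, oncofetal and erythroid lists lie highest, and carboxylesterases, periportal genes and macrophage markers lowest.

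Most listed detoxifying enzymes of the hepatocyte fell. Among the female-biased genes described further on, the cytochrome P450 gene Cyp3a16 and the sulfotransferase gene Sult2a1 rose, while Cyp2b9 and Cyp2a4 fell. All 11 tested carboxylesterases, hydrolases of esters and drugs, fell, with a median of -2.20. Ces3b was at 0.0495, 0.136 and 0 RPKM in the tumours and from 10.8 to 28.7 (median 23.5) in the livers (-4.29 ± 0.259, limma adjusted p = 5.32e-08), a 337-fold difference of the means, and its paralog Ces3a was at 1.6, 2.53 and 0.339 against 26.2 to 40.2 (median 33.2). Of 21 cytochrome P450 genes 18 fell and none rose (median -1.19), from Cyp2f2 (-4.29), Cyp2j5 (-3.95), Cyp2c54 (-3.56) and Cyp2c50 (-3.07) to Cyp2e1 (-0.26), which the β-catenin pathway is known to control and which was not called without the first tumour (-0.19, limma adjusted p = 0.133); paralogs of these families can share reads. Of 19 genes of bile acid synthesis and transport 15 fell and 1 rose (9 and 1 as deposited; none rose without the first tumour): the exporter Abcc3 was at 1.78, 2.76 and 1.63 RPKM against 17.6 to 24.2 (median 21.9; -2.90 ± 0.121, limma adjusted p = 2.93e-09), and Cyp8b1, which makes cholic acid, fell by 2.09, while Cyp7a1, the rate-limiting enzyme, was not called (0.29, limma adjusted p = 0.469). Slc34a2, a sodium-phosphate cotransporter, had at most 3 reads in each tumour and 14.6 to 37.5 RPKM (median 18.1) in the livers, and was at least 1212-fold lower. Other large falls were those of Apol9b (-4.15) and its near copy Apol9a (-3.73), Cyp4f14 (-4.13), Urad, which ends uric acid breakdown (-4.08), Ptgds, a prostaglandin synthase (-4.01), and Dio1, which activates thyroid hormone (-3.98).

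Plasma proteins fell, the abundant ones by little. All 25 genes of complement and coagulation fell (median -0.96; 19 as deposited, none higher). C9, the last component of the membrane attack complex, was at 0.188, 0.708 and 0.0908 RPKM against 14.5 to 25.9 (median 17.4; -3.97 ± 0.203, limma adjusted p = 1.54e-08), C6 of the same complex fell by 2.86, and the lectins Mbl1 and Mbl2 by 2.21 and 2.08. Of 18 abundant secreted proteins 16 fell (median -0.35), 10 fell without the first tumour, only 3 were called in the values as deposited, and all 18 lay above 1 read per base, near the ceiling; Alb was at 30.9, 36.5 and 33.3 RPKM against 45.3 to 57.8 (median 49.1; -0.56 ± 0.0901, limma adjusted p = 0.000148). Hepatocyte transcription factors fell in 12 of 18 cases and rose in none (9 and 1 as deposited; median -0.51). Onecut1, also called HNF6, was at 0.908, 1.2 and 1.74 RPKM against 4.19 to 10.8 (median 5.86; -1.64 ± 0.253, limma adjusted p = 0.000108), the bile acid receptor Nr1h4 fell by 1.03, and Hnf4a, the main factor of hepatocyte identity, by 0.44. The iron hormone Hamp fell by 0.92 and the iron sensor Tfr2 by 1.17, where the inducer Bmp6 rose by 0.71; of 14 iron genes 9 fell and 2 rose (6 and 3 as deposited).

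**Figure D4:**
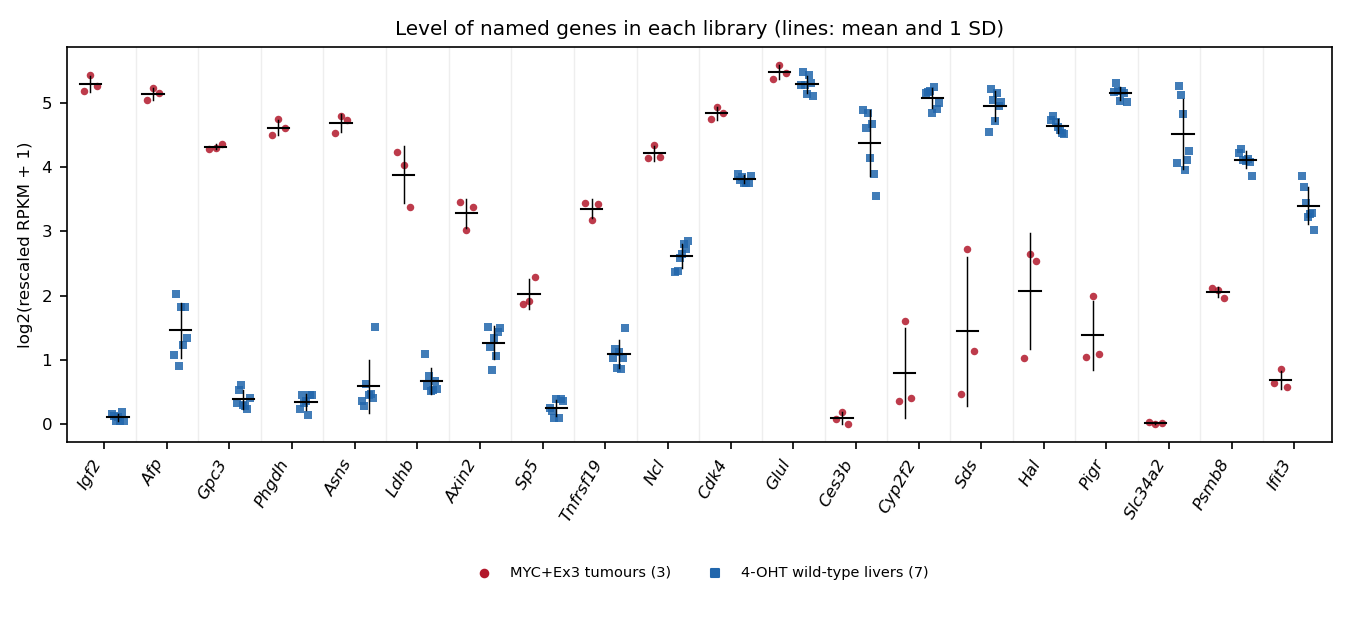
Level of 20 named genes (log2(rescaled RPKM + 1)) in each of the 3 MYC+Ex3 tumours (red circles) and 7 livers (blue squares), with lines for the mean and 1 SD of each group. Igf2, Afp, Gpc3, Phgdh and Asns stand high in the tumours and low in the livers, Ces3b, Cyp2f2, Pigr and Slc34a2 the reverse, and Glul overlaps.

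Genes of the YAP/TAZ pathway, named in the title of the series, fell more often than they rose. YAP and TAZ are coactivators that bind TEAD factors and that the LATS kinases hold in the cytoplasm. Of 18 tested, 3 rose and 10 fell (median -0.45), and these counts were 3 and 9 as deposited. Among all tested genes, 37.2% were called higher and 30.9% lower. Yap1 was at 5.03, 4.89 and 5.21 RPKM against 4.36 to 5.29 (median 5.08), within the liver range (0.05, limma adjusted p = 0.614). Wwtr1, which encodes TAZ, was at 2.87, 2.16 and 4.53 RPKM against 3.78 to 5.48 (median 5.1) and fell by 0.52 (limma adjusted p = 0.00853) with overlapping groups; without the second tumour it was not called (-0.33, limma adjusted p = 0.0698). Of the targets, Ctgf was at 5.55, 3.14 and 6.24 RPKM against 1.43 to 3.37 (median 2.14) and rose by 0.87 (limma adjusted p = 0.00385), Cyr61 was not called (-0.35, limma adjusted p = 0.161), and Amotl2 was at 0.833, 1.06 and 1.11 RPKM against 4.03 to 5.83 (median 4.49) and fell by 1.52 ± 0.111 (limma adjusted p = 2.32e-07). F3, tissue factor (-1.33), Amotl1 (-1.16) and Lats2 (-0.81) fell. Gadd45b, a growth arrest gene that many signals induce, showed the largest rise of the list, at 9.83, 8.32 and 17.3 RPKM against 0.687 to 1.88 (median 1.4; 2.40 ± 0.198, limma adjusted p = 6.52e-07).

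Interferon-stimulated genes and MHC class I presentation fell. Of 18 interferon-stimulated genes 16 fell and none rose (median -1.47). Ifit3, an antiviral protein, was at 0.55, 0.798 and 0.482 RPKM against 7.16 to 13.6 (median 8.73; -2.72 ± 0.158, limma adjusted p = 4.08e-08), and Irf7, the factor that amplifies interferon, fell by 2.53, with Usp18 (0.22, limma adjusted p = 0.312) and Rsad2 (0.02, limma adjusted p = 0.951) as the 2 genes that were not called. Of 12 genes of antigen presentation 11 fell and none rose (median -1.17). Psmb8, a subunit of the immunoproteasome, was at 3.34, 3.25 and 2.91 RPKM against 13.6 to 18.6 (median 16.2; -2.06 ± 0.0865, limma adjusted p = 3.24e-09). Nlrc5, the coactivator of MHC class I genes, fell by 1.98, the peptide transporter Tap2 by 1.75 and the class I heavy chain H2-K1 by 0.85.

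Markers of the other cells of the liver moved with these groups. In whole tissue, fewer cells of a type and less RNA per cell cannot be told apart. Of macrophage and Kupffer cell markers all 11 fell (median -1.70), and their summed RPKM was 85.0 to 111 in the tumours and 194 to 256 in the livers. Clec4f, which marks Kupffer cells, was at 3.6, 3.97 and 3.04 RPKM against 22.6 to 32 (median 26.9; -2.61 ± 0.101, limma adjusted p = 1.65e-09), and Timd4, which marks resident Kupffer cells, fell by 2.52, whereas Cd68, common to all macrophages, fell by 0.26, a call lost without the first (-0.19, limma adjusted p = 0.197) or the third tumour and without livers 2, 3, 4 or 6. Of 10 sinusoidal endothelial markers 9 fell (median -1.58; sums 33.3 to 36.6 against 73.5 to 117), among them Clec4g (-2.23) and Stab2 (-1.57), and Lyve1 was not called (0.18, limma adjusted p = 0.382). Of 9 stellate cell and fibroblast markers 6 fell and 1 rose (summed level of all 10 listed markers 25.6 to 32.6 against 46.8 to 58.9): Reln fell by 1.79 and Lrat by 1.49, and Col1a1 rose by 0.75. The sums for cholangiocyte markers were 5.1 to 8.1 against 11.2 to 18.7 and for lymphocyte markers 4.42 to 5.63 against 7.35 to 16.2. No marker of these lists was at 0 in all tumours. The part of these cells in the fall of the interferon and antigen presentation genes was not tested.

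Markers of granulocytes and of red cell precursors went the other way. All 7 granulocyte genes rose (median 3.33), with a summed RPKM of 108 to 169 in the tumours against 9.34 to 36.6 in the livers. The genes of early granule formation were among them: Mpo, myeloperoxidase, was at 12.4, 12.8 and 7.62 RPKM against 0.0297 to 0.371 (median 0.0698; 3.33 ± 0.155, limma adjusted p = 7.46e-09), and Elane, neutrophil elastase, was at 13.2, 15.5 and 8.89 RPKM against 0.153 to 0.685 (median 0.289; 3.34 ± 0.154, limma adjusted p = 6.87e-09). Later granule genes rose too, Ngp by 3.56 and Camp by 3.45, and S100a8, abundant in mature neutrophils, by 1.87. All 7 erythroid genes rose as well (median 1.93; sums 79.3 to 118 against 22.2 to 34.5). Slc4a1, the anion exchanger of red cells, was at 18.7, 23 and 13.6 RPKM against 0.208 to 0.897 (median 0.591; 3.59 ± 0.153, limma adjusted p = 3.78e-09). Hbb-b1, the adult β-globin that mature red cells also hold, was at 13.9, 19.1 and 15.3 RPKM against 9.5 to 14.8 (median 11.3) and rose by 0.46 with overlapping groups. In each of Mpo, Elane and Slc4a1 the third tumour was the lowest of the tumours and still lay above every liver. Leaving out any tumour left 3 granulocyte and 4 erythroid genes called, because the others then no longer passed the filter.

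These markers were not shared evenly by the MYC tumours. Rescaled over 13 libraries, the granulocyte sum was 139, 171 and 109 in the MYC+Ex3 tumours and 10.1, 126 and 56.2 in the MYC tumours, and the erythroid sum was 97.6, 120 and 80.2 against 22.6, 89.0 and 17.6. The second MYC tumour thus resembled the MYC+Ex3 tumours in both sums, while the other 2 had erythroid sums at or under the liver range of 22.6 to 35.3. Between the tumour types Elane was called (2.02, limma adjusted p = 0.0395), but Mpo was not (1.96, limma adjusted p = 0.0511). Blood cell precursors divide, and the part of their transcripts in the rise of the mitosis and replication genes was not tested.

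**Figure D5:**
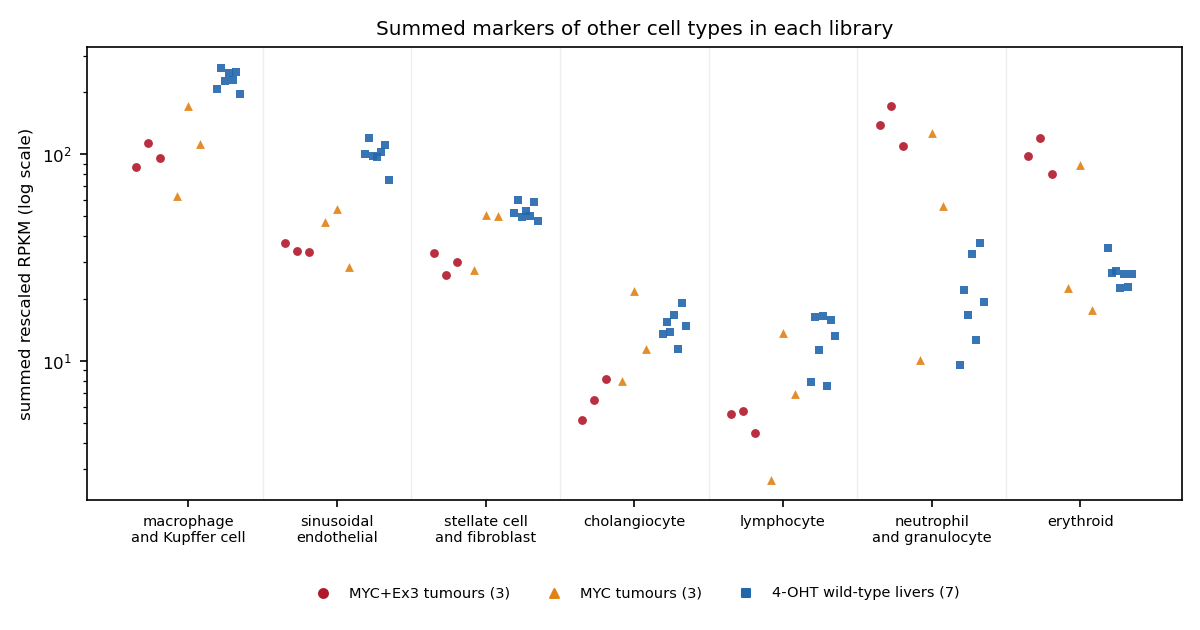
Summed rescaled RPKM (logarithmic axis) of the markers of 7 other cell types in each MYC+Ex3 tumour (red circles), MYC tumour (orange triangles) and liver (blue squares), rescaled over the 13 libraries. The MYC+Ex3 tumours lie under all livers for macrophage, endothelial, stellate, cholangiocyte and lymphocyte markers and above all livers for granulocyte and erythroid markers.

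Male-biased liver genes fell or were not called, and female-biased genes moved both ways. Of 14 male-biased genes 8 fell and none rose (12 with sex as a covariate), and of 14 tested female-biased genes 5 fell and 3 rose (1 without the third tumour). Among all tested genes, 30.9% were called lower and 37.2% higher. Sult2a1, a female-biased sulfotransferase, was at 17.7 and 21.3 RPKM in the 2 male tumours and 19.9 in the female one, against 0 to 0.0345 in the 4 male livers and 5.62 to 17 in the 3 female livers (2.81 ± 0.966, limma adjusted p = 0.0215, and 0.0532 to 0.063 without 1 tumour). Cyp3a16 was at 7.12 and 9.21 RPKM in the male tumours, 15.2 in the female tumour, 0.0192 to 0.142 in male livers and 0.864 to 14.8 in female livers; its rise of 2.40 (limma adjusted p = 0.0133) was not called without the third tumour (2.12, limma adjusted p = 0.0609). Both male tumours thus stood above every male liver in these genes. The female-biased genes Cyp2b9 (-3.74) and Cyp2a4 (-3.67) fell in tumours of either sex, so the female genes did not move as a group, and no test of sex within the tumours is possible with 1 female tumour.

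The 3 tumours were close to one another in most genes. The median SD of log2 values was 0.124 among the tumours and 0.145 among the livers, and the SD passed 1 log2 unit in 19 genes among tumours and 28 among livers. The first principal component, 80.3% of the variance, separated tumours from livers, and the next, 6.12%, separated livers from one another. On that second component the 4 male livers lay above the 3 female ones, with a narrow gap between male liver 7 (-3.6) and female liver 2 (-4.2). Among genes with a mean of at least 5 RPKM in the tumours, the largest spread was in Rps4l, a relative of a ribosomal protein gene with which it may share reads (0.815, 21.8 and 2.44 RPKM), and in Pck1. A2m, the broad protease inhibitor α2-macroglobulin, was at 2.79, 1.46 and 17.2 RPKM and at most 0.0355 in any liver. Laptm4b, a lysosomal protein, was at 6.74, 9.08 and 0.719 RPKM against 5.45 to 7.51 in the livers, so that 1 tumour lay under all livers and another above. The acute-phase protein Lrg1 (3.04, 8.8 and 16 RPKM), the plasma protein Hrg (2.78, 12.5 and 8.45), the protease inhibitor Mug1 (3.29, 10.6 and 1.85) and Cyp2c29 (10, 6.9 and 1.29) completed the 8 genes, and in these 4 every tumour lay under every liver.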

How the data were processed

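RNA was sequenced from 3 MYC+Ex3 tumours, 3 MYC tumours and 7 wild-type livers, grouped by their labels. Per the submitters' processing notes the tools were TopHat2 2.0.8, SAMtools, featureCounts 1.4.5-p1 and DESeq2, with build mm9; how they were combined is not given in the sources used here. The authors deposited RPKM values per gene and a table of comparisons with log2 fold changes and adjusted p-values; only the RPKM values were analysed here, beside which the authors' calls were counted. Every RPKM value was a whole multiple of 1 read (100% within 0.001 reads), which gave the depths.

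Each library was divided by its median ratio to the gene-wise geometric mean over the libraries compared. limma 3.58.1 (R 4.3.3; trend, two-sided, Benjamini-Hochberg over all genes) was fitted to log2(RPKM + 1) for genes with an RPKM of at least 1 in at least 3 libraries, without covariates; the tumour types were compared in a fit of all 13 libraries. A gene is called at an adjusted p under 0.05. The script was tested on simulated data. Tables and figures were made with Python 3.11.15, numpy 2.4.6, pandas 2.3.3, scipy 1.17.1 and matplotlib 3.10.9.

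Named genes are Myc, Ctnnb1, Igf2, Afp and Ces3b; the 15 highest and 15 lowest changes among called genes without overlap at a mean of at least 5 RPKM; up to 4 rises and 4 falls of each list and members whose role defines it; the 8 genes with the largest spread among tumours; and 5 each way between tumour types. The groups, lists and role-defining members were chosen with earlier results of these data known. Sex was read from Xist and Ddx3y. Alternatives covered the pseudocount, filter, scaling, weights, sex, a 2-fold minimum, liver name sets, voom on recovered reads and leaving out each library. Some genes counted in the lists are not reported here by name.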

Additional observations from a re-analysis of the deposited data

Results flagged for a closer look

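In 15 of 242 named genes 1 of the 7 livers lay far from the other 6, a rate near the 1 in 20 groups that chance flags. In liver 7, Asns was high at 1.83 RPKM (others 0.216 to 0.534), and Bmp6 (0.504), Dio1 (15.3), Irf7 (18.1), Msmo1 (8.14) and Oit3 (6.51) were low. In liver 4, Cyp7a1 was low at 5.77 RPKM (others 15.4 to 29.1). In liver 1, Prtn3 was low at 2.95 RPKM (others 10.9 to 14.9), Gfi1b was at 0, Ldhb was high at 1.13 and Dlk1, with 1 read, was high at 0.00616 where the others were at 0. Ccnd2 (2.25 RPKM) and Slc4a1 (0.208) were low in liver 2, Hsd17b6 (8.88) in liver 3 and Slc20a2 (6.96) in liver 6.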

How the results depend on the processing

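Against the livers, 7883 genes were called (4307 higher, 3576 lower). A filter at 5 RPKM, which tests 6452 genes, gave 4591 (2554 and 2037), and a 2-fold minimum gave 981 (500 and 481). The other settings gave 6560 to 9914 calls, the lowest with genes under 0.5 reads per base alone, an alternative chosen after seeing the data; leaving out 1 library gave 6700 to 7867. Of the calls, 31 changed sign in the values as deposited and none under the other settings. Of 242 named genes, 129 kept their side of the threshold and their direction in every setting run, 106 lost the call in at least 1, 7 gained it, and none changed direction. These settings include the 2-fold minimum, under which changes of less than 2-fold lose the call by design. Genes that passed the filter through the tumours alone, such as Igf2 and Phgdh, were not tested in the settings that left out a tumour.

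Between tumour types, 583 genes were called (302 higher, 281 lower), against 323 (164 and 159) with the filter at 5 RPKM and 50 (32 and 18) in a fit of only the 6 tumours, which has fewer samples to estimate the spread. Leaving out 1 library gave 225 to 957 calls, 107 to 504 higher and 118 to 456 lower; the cause was not tested. No paired analysis was possible because numbers were given to samples in record order and link none of them across groups.

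The ceiling near 1.63 to 1.81 reads per base limits changes of abundant genes, and 1 read in a gene of 2 kb was worth 0.013 to 0.0178 RPKM, which limits low ones. With 3 tumours, of which 1 was female, no effect of sex within them could be tested.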

Other observations

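Genes of blood cell formation outside the fixed lists, chosen after their values were seen, were also higher in the MYC+Ex3 tumours. Klf1, an erythroid transcription factor, was at 5.07, 5.03 and 2.28 RPKM against 0.702 to 1.04 (median 0.842) in the livers (1.41 ± 0.162, limma adjusted p = 9.8e-06). Gata1, which directs erythroid and megakaryocyte development, was at 3.67, 3.96 and 1.32 RPKM and at most 0.0761 in any liver (1.88 ± 0.185, limma adjusted p = 2.65e-06). Tal1 (1.61) and Gfi1b (1.61), factors of the same lineages, the red cell membrane protein Rhag (2.61) and Ctsg, a granule protease (3.02), rose without overlap of the groups. Prtn3, another granule protease gene, was not called (-0.39, limma adjusted p = 0.333) and became lower without liver 1 (-0.64, limma adjusted p = 0.000128). The second MYC tumour, at 5.62 RPKM of Klf1 and 3.96 of Gata1, lay with the MYC+Ex3 tumours, and the other MYC tumours were at most at 0.781 and 0.0864.

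Of the signals that hold blood cell precursors in a niche, Kitl, the ligand of the KIT receptor, was at 6.79, 4.48 and 1.3 RPKM against 1.05 to 1.38 (median 1.19) and rose by 1.07 (limma adjusted p = 0.00358), with the third tumour inside the liver range. Cxcl12, a chemokine that retains precursors, was at 3.91, 4.63 and 2.89 RPKM against 12.6 to 16.7 (median 14.2) and fell by 1.71 (limma adjusted p = 1.45e-07). It was also lower than in the MYC tumours (-1.07, limma adjusted p = 0.00124), which were at 9.36, 10.6 and 7.6 RPKM.

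Enzymes of amino acid breakdown fell in 16 of 21 cases, with a median of -0.83 against 0.05 for all genes, and 6 of the 21 were lower than in MYC tumours. Agxt, which detoxifies glyoxylate, was at 0.792, 3.5 and 1.39 RPKM against 21.5 to 31.1 (median 25.1; -3.30 ± 0.216, limma adjusted p = 9.86e-08).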
